A study of Rattus norvegicus with 2 samples.

Results

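Myostatin, follistatin, a type II activin receptor, the TGF-beta ligands and their intracellular SMAD proteins form 1 signalling system that restrains muscle growth and drives matrix formation. The system was represented by 10 genes, Mstn, Fst, Acvr2b, Tgfb1, Tgfb2, Tgfb3, Tgfbr2, Smad3, Smad7 and Ctgf, matched by gene symbol to the probe sets of the array. Ctgf is listed under its current symbol, Ccn2. Of the 10 genes, 9 had at least 1 probe set naming that gene alone and were measured, out of 9956 genes measured in all, and Tgfbr2 was not analysed here. The 9 genes were covered by 14 probe sets, of which 13 reached the signal floor explained below on at least 1 array.

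Ligands of this family bind a type II receptor, which activates a type I receptor. The type I receptor then phosphorylates receptor SMADs, which enter the nucleus with SMAD4 and switch target genes on or off. Myostatin and activins use mainly ACVR2B and ACVR2A and signal through SMAD2 and SMAD3, as do the TGF-beta ligands through TGFBR2. In skeletal muscle, loss of myostatin or excess of its antagonist follistatin gives larger muscles, and TGF-beta is known for promoting fibrosis after injury.

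The 2 samples were adductor muscle from the inner thigh of male Lewis rats with a body weight of 275 g. Lewis is an inbred strain, and neither a transgene nor a drug is named for either sample. The stimulated sample came from the left hindlimb, which received 100 pricks with a steel needle 0.14 mm in diameter within a square of 10 mm by 10 mm, and was taken 24 hours later. The control sample came from the right hindlimb, which was left intact. The labels used here do not state age, the number of rats, or whether 1 animal gave both pieces. With 1 array for each limb, differences have neither replicates nor tests, and "higher" and "lower" refer to this pair of samples.

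Values are linear signal intensities of Affymetrix probe sets, made by the authors with MAS5. The median of all signals, 19.8, served as a floor, and every smaller signal was replaced by it. Differences are log2 ratios, stimulated over control, of these floored signals. With 1 of the 2 signals under the floor, the true fold may be larger, and it carries the words "at least". The error at hand is the spread between probe sets of the same gene, an SD of 0.31 for the log2 ratio of a single probe set, from 2174 genes. This SD holds no variation between limbs or animals. Of all probe sets, 48.9% reached the floor in the stimulated sample and 51.1% in the control. All 10 skeletal muscle fibre markers listed were measured on both arrays, among them skeletal actin Acta1, at 12095 in pricked muscle and 16712 in intact muscle. By their brightest probe sets all 10 were below 0, with a median log2 ratio of -0.42. Their summed signal was 87190 in pricked and 115330 in intact muscle. Further probe sets lay on both sides of 0, at 0.31 for Tnnt3 and at -0.51 and -0.58 for Pygm. Those of Myh1 included -0.22, 0.15 and 0.08. Hybridisation spike-ins are control RNAs added in fixed amounts, and several probe sets read the same RNA. All 18 of these probe sets, which are not independent readings, had lower signals on the array of pricked muscle (median log2 ratio -0.38). The direction of each difference below therefore holds relative to the median gene, at 0.019. Scaled to the spike-ins without that reference, Mstn, Fst, Acvr2b, Tgfb2 and Smad7 turn from below to above 0.

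By the brightest probe set of each gene, 0 of the 9 genes were 2-fold higher and 0 were 2-fold lower in the pricked muscle. Of all 9956 measured genes, 2.85% differed by at least 2-fold, 1.43% in each direction. At 1.5-fold the count was also 0 of 9, against 13.5% of all genes. The median log2 ratio of the 9 genes was -0.03, with 4 genes above 0 and 5 below, and the values ran from -0.37 for Acvr2b to 0.34 for Tgfb1. For 7 of the 9 genes the log2 ratio was smaller than the probe set SD, as it was for 62.4% of all genes. The median absolute log2 ratio was 0.13 for the 9 genes and 0.23 for all genes. These counts are near the background of all genes. A further probe set of Fst and one of Smad7 gave another value. In bulk tissue, fewer cells of a type and less RNA per cell cannot be told apart.

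**Figure D1:**
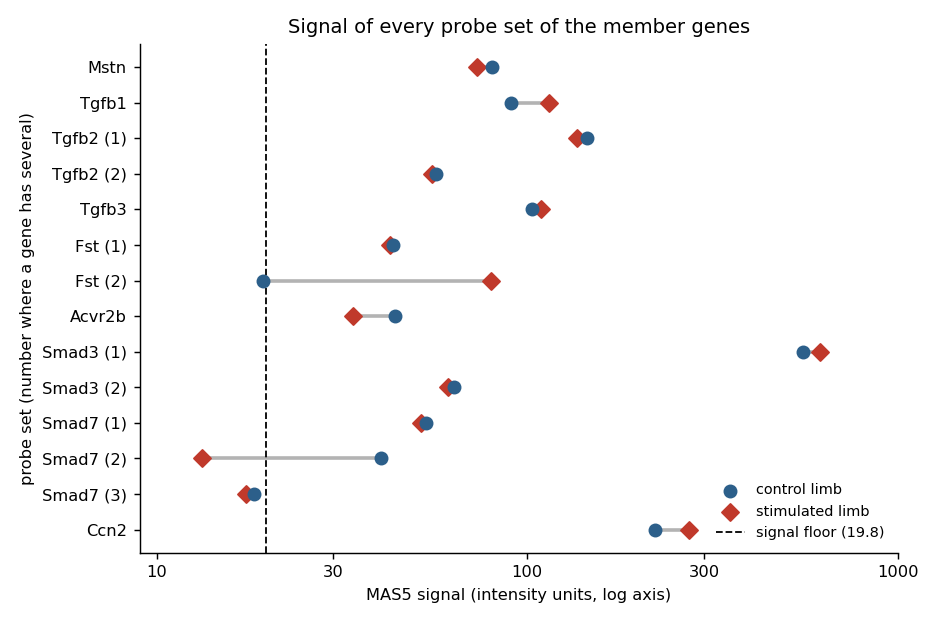
MAS5 signal (log axis) of all 14 probe sets of the 9 genes, with a circle for the control limb, a diamond for the stimulated limb and a dashed line at the floor of 19.8. The pairs lie close together except for the second probe set of Fst (80.1 against 19.4) and the second of Smad7 (13.3 against 40.2).

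Mstn encodes myostatin, a ligand made by muscle fibres that limits muscle mass. Its 1 probe set had a signal of 73.4 in pricked muscle and 80.6 in intact muscle. This is a log2 ratio of -0.13, or 1.10-fold lower, within the probe set SD. By their brightest probe sets, the muscle fibre markers were lower in the same sample, at a median of -0.42. Their part in the Mstn value was not tested.

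The 3 TGF-beta ligands are secreted in a latent form and bind TGFBR2 once released. Tgfb1, the isoform produced by many cells including macrophages and platelets, had a signal of 115 in pricked muscle and 90.4 in intact muscle. Its log2 ratio of 0.34, or 1.27-fold higher, was the highest among the brightest probe sets of the 9 genes and slightly larger than the SD of 0.31. Among all measured probe sets, 35.1% had a log2 ratio at least that far from 0. Tgfb2 had a signal of 137 against 145, a log2 ratio of -0.09, and its second probe set had 55.3 against 56.7, a log2 ratio of -0.04. Tgfb3 had a signal of 109 against 103, a log2 ratio of 0.09. Tgfb2 and Tgfb3 therefore lay within the SD in all 3 of their probe sets.

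Macrophage and leukocyte markers were higher in the same sample, with all 15 listed markers measured and above 0 and a median log2 ratio of 0.91. The summed signal of their brightest probe sets was 16751 in pricked muscle and 6331 in intact muscle, with Spp1 alone below the floor in the control. Without Spp1 and Gpnmb, the sum over the other 13 was 10738 against 6131. Of 6 platelet markers listed, 3 were measured, and the defining Gp9 and Ppbp lay below the floor on both arrays. Of those 3, 1 was above 0 and 2 below, with a median log2 ratio of -0.36 or lower. Their summed signal was 589 in pricked muscle and 397 in intact muscle. Most of that sum was Pf4 (570 against 343), since Itga2b and Treml1 were below the floor in pricked muscle. The part of these cells in the Tgfb1 value was not tested.

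Fst encodes follistatin, a secreted protein that binds activins and myostatin and blocks them from their receptors. Its 2 probe sets gave different answers. The brighter by mean log2 signal (1372750_at, 5.43) had a signal of 42.6 in pricked muscle and 43.5 in intact muscle, a log2 ratio of -0.03. The other (1387843_at, mean log2 signal 5.31) had a signal of 80.1 against 19.4, the control lying just below the floor. That is at least 4.05-fold higher, a log2 ratio of at least 2.02, and 4.13-fold on the deposited signals without a floor.

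With the floor applied to all, 0.168% of measured probe sets had a log2 ratio as far from 0 as the second Fst probe set, and 1.24% were at least 2-fold higher. The log2 ratios of both Fst probe sets lay at least 2.05 apart. Across the 2595 genes with several measured probe sets, the median range was 0.36 on the same floored scale. A range at least as large as that of Fst was seen in 3 genes (0.116%), Fst among them. With the median over probe sets in place of the brightest, the Fst log2 ratio was at least 0.99. The data therefore give no single value for Fst, and this gene was singled out after its values were seen.

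Acvr2b encodes a type II receptor for myostatin and activins. Its 1 probe set had a signal of 34.0 in pricked muscle and 43.9 in intact muscle. The log2 ratio of -0.37, or 1.29-fold lower, was the lowest among the brightest probe sets of the 9 genes. It was slightly larger than the SD, and 32.4% of measured probe sets differed by at least as much.

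Smad3 encodes a receptor SMAD of the TGF-beta and activin branch. Its brighter probe set had a signal of 618 in pricked muscle and 554 in intact muscle, a log2 ratio of 0.16, and its other probe set had 61.1 against 63.5, a log2 ratio of -0.05. Both lay within the SD, on opposite sides of 0.

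Smad7 encodes an inhibitory SMAD that shuts off the type I receptor and is itself induced by the pathway. Of its 3 probe sets, the brightest (1368896_at) had a signal of 51.7 in pricked muscle and 53.5 in intact muscle, a log2 ratio of -0.05. The second (1368897_at) had a signal of 13.3, below the floor, against 40.2, at least 2.03-fold lower, and 3.03-fold lower on the deposited signals without a floor. The third (1368898_at) had 17.4 against 18.4, below the floor on both arrays. Of all measured probe sets, 1.78% were at least 2-fold lower. The log2 ratios of both measured Smad7 probe sets lay at least 0.98 apart, and their median was -0.54 or lower. Of the 2595 genes with several measured probe sets, 7.98% had a range at least as large on the floored scale.

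Ccn2 (Ctgf) encodes a matricellular protein of fibroblasts and other cells, widely used as a readout of TGF-beta activity. Its 1 probe set had a signal of 274 in pricked muscle and 222 in intact muscle. The log2 ratio of 0.30, or 1.23-fold higher, lay just within the SD. Fibroblast markers, of which 10 were measured, had a median log2 ratio of -0.23 with 7 below 0. Their summed signal was 19400 in pricked muscle and 23486 in intact muscle. Among them, Col1a1, Col1a2 and Col3a1 are also in the list of TGF-beta targets below, and Dcn is in that of extracellular antagonists. The part of fibroblast number in the Ccn2 value was not tested.

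**Figure D2:**
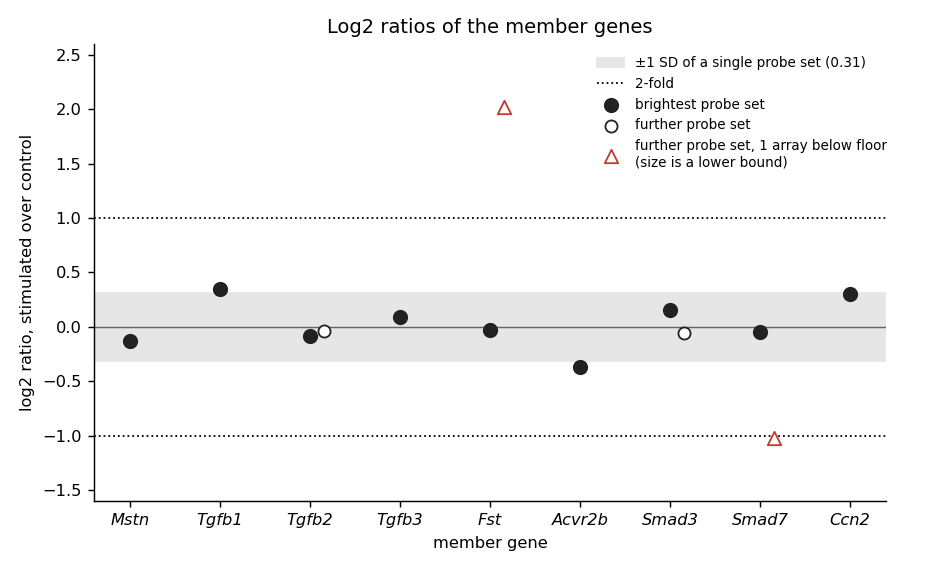
Log2 ratio of stimulated over control for the 13 measured probe sets of the 9 genes. Filled circles are the brightest probe set of a gene, open circles further ones, triangles further ones with 1 array below the floor (lower bounds), and the grey band is 1 SD of a single probe set, 0.31. The brightest probe sets lie between -0.37 and 0.34, while the second probe sets of Fst and Smad7 lie at 2.02 and -1.02.

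**Figure D3:**
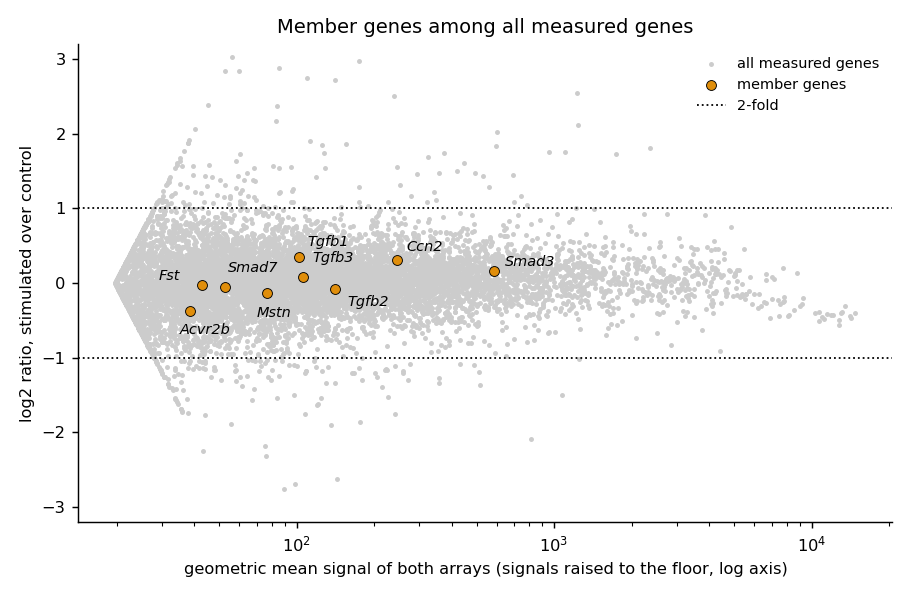
Log2 ratio against the geometric mean signal of both arrays (log axis) for all 9956 measured genes in grey and the 9 genes in orange, each by its brightest probe set. All 9 lie inside the dotted 2-fold lines, and 2 grey genes lie beyond the vertical axis.

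The 9 genes span a wide signal range, and dim genes are noisier, so the background was also taken within the range of mean signals that the 9 genes cover. There, 2.68% of 6652 genes differed by at least 2-fold and 12.1% by at least 1.5-fold. At shares of this size, a count of 0 of 9 is near the background.

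Upstream sequences are shown for the pair of genes above that the pathway itself regulates, Ccn2 and Smad7, and for Id1, the BMP target with the largest difference below. They are the 250 bases before the annotated gene start, from RefSeq, build GRCr8, on the strand of the gene. Capitals mark CAGAC or its reverse complement GTCTG (the core of the SMAD-binding element), GGCGCC (a GC-rich sequence bound by SMADs of the BMP branch) and TATAAA or its reverse complement TTTATA (the TATA box).
Ccn2, chr1:22624615-22624864, minus strand: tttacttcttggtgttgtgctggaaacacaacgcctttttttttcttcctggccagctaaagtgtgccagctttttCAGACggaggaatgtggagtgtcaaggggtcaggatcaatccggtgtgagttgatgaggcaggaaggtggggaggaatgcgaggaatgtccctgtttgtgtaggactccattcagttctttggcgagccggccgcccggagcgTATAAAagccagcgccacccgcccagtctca
Smad7, chr18:71263258-71263507, plus strand: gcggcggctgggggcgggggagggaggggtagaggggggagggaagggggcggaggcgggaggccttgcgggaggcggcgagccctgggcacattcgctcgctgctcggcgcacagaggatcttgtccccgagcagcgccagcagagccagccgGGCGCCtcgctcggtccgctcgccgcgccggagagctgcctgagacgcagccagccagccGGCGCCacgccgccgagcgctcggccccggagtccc
Id1, chr3:161671314-161671563, plus strand: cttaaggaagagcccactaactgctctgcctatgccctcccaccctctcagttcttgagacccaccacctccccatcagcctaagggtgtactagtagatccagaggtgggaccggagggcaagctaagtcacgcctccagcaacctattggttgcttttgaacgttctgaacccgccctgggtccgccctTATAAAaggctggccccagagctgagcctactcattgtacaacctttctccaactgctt

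The Ccn2 window held CAGAC starting 174 bases and TATAAA starting 31 bases before the gene start. The Smad7 window held GGCGCC at 2 places, 96 and 36 bases before the start, and had a GC content of 78%, against 53.2% for Ccn2. The Id1 window held only TATAAA, 59 bases before the start. Of the 10 genes, 8 were matched in the promoter table, and 1 of these held CAGAC or GTCTG, 1 held GGCGCC and 1 held TATAAA or TTTATA. Over all 33469 promoters of the same length, the shares were 42.9%, 8.69% and 12.9%. The motifs overlap no other searched motif in these windows, and a match is a description of the letters only.

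The rest of the pathway was described through 6 gene lists of ligands, receptors, extracellular antagonists, SMADs and their regulators, and target genes of both branches. Outside the 9 genes, 69 further genes of these lists were measured. Of these, 3 were at least 2-fold higher (Gdf11, Lox and Tnc) and 6 at least 2-fold lower (Acta2, Bmp1, Id1, Id3, Ltbp1 and Tgfbr3), which is 13% against 2.85% of all genes. With 16 signal units added to both arrays in place of the floor, 1 was higher and 3 lower (5.8%, against 2.22% of all genes). Of the 9, Tnc, Acta2, Id1 and Id3 then stayed past 2-fold. With the median over probe sets, Bmp1, Tgfbr3 and Lox did not. Scaled to the spike-ins, the split turned to 8 higher and 2 lower (14.1%, against 5.8% of all genes). At 1.5-fold the count was 9 higher and 10 lower, or 27.5% against 13.5%. Since the lists were chosen with earlier results of these data known, these shares cannot show an excess in the pathway. The median log2 ratio was -0.13, with 26 genes above 0 and 43 below. Of the 9 genes past 2-fold, 3 had a further measured probe set, and in 0 of these did it reach 1.5-fold.

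**Figure D4:**
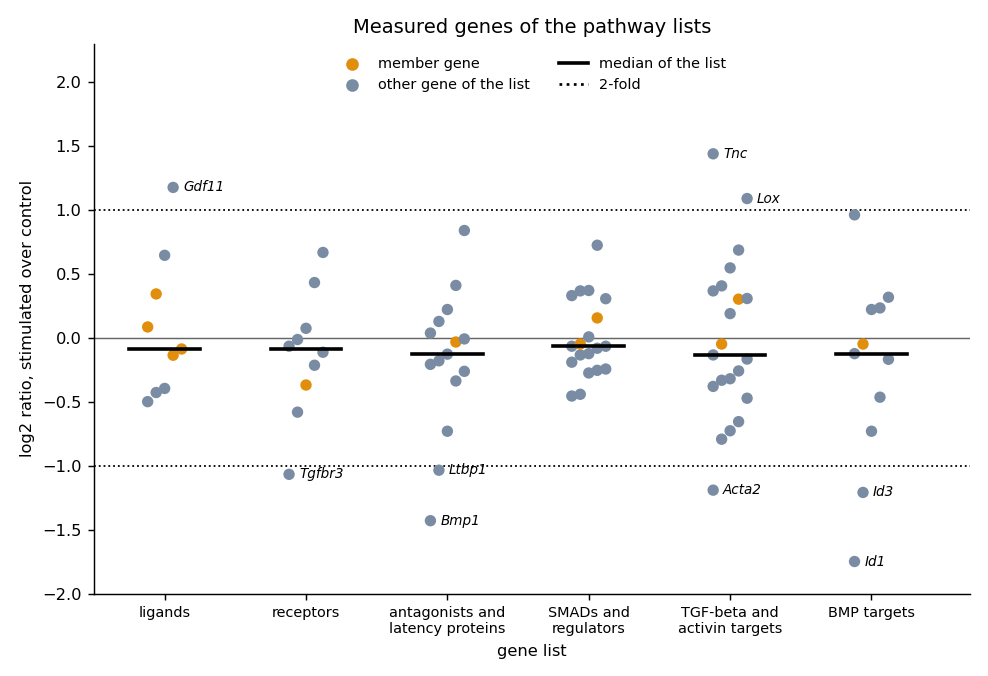
Log2 ratio of stimulated over control of every measured gene in the 6 pathway lists, by brightest probe set, with the 9 genes in orange, other genes in grey-blue, a bar at the list median and dotted lines at 2-fold. A gene in several lists is drawn in each, and the 9 genes named in the plot are those past 2-fold.

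Of 20 ligand genes listed, 9 were measured and 8 lay below the floor on both arrays, and the list median was -0.09. Gdf11, a close relative of myostatin, had a signal of 49.4 in pricked muscle and 21.9 in intact muscle, 2.26-fold higher, with its control value close to the floor. With 16 units added in place of the floor, its log2 ratio was 0.79. Bmp2 was 1.57-fold higher (32.5 against 20.7), its control value also close to the floor, and its log2 ratio was 0.40 with 16 units added. Bmp4 was 1.41-fold lower (26.1 against 36.8). Inha, the inhibin alpha subunit, was lower by at least 1.34-fold, from 26.6 in intact muscle to a value under the floor. Inhba, the activin A subunit gene, was below the floor on both arrays, so no ratio was taken.

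Of 15 receptor genes listed, 10 were measured, with a median log2 ratio of -0.09, 3 above 0 and 7 below. Tgfbr1, the type I receptor for TGF-beta, had a signal of 250.4 in pricked muscle and 157 in intact muscle, 1.59-fold higher. Acvr2a, the other type II receptor of myostatin and activins, was 1.35-fold higher (68.7 against 50.8), on the opposite side of 0 from Acvr2b. The co-receptor Tgfbr3 (betaglycan) was 2.09-fold lower (26.4 against 55.4), although its other probe set stood at -0.02 on the log2 scale. Eng (endoglin), found mainly on endothelium, had a log2 ratio of -0.58 (93.5 against 140). Acvr1b was not analysed here.

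Of 25 extracellular antagonists and latency proteins listed, 15 were measured, with a median of -0.13, 5 above 0 and 10 below. Ltbp1, which ties latent TGF-beta to the matrix, had a signal of 53.6 in pricked muscle and 110 in intact muscle, 2.05-fold lower. Bmp1, a protease that cleaves procollagens and releases latent ligands, was 2.69-fold lower (20.2 against 54.4), whereas its other probe set stood at -0.22 on the log2 scale. Itgav, the integrin subunit that activates latent TGF-beta, was 1.79-fold higher (60.4 against 33.7), and the BMP antagonist Nog was 1.66-fold lower (46.5 against 77.1). Fstl3, a relative of follistatin that also binds myostatin and activins, was 1.33-fold higher (28.7 against 21.6).

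Of 21 SMADs and intracellular regulators listed, 19 were measured, with a median of -0.06. Of these, 0 differed by 2-fold and 1 by 1.5-fold, against 2.85% and 13.5% of all genes. At 2-fold, a count of 0 of 19 is near the background. Tgif1, a corepressor of SMAD2 and SMAD3, was 1.65-fold higher (103 against 62.5). Smad2 was 1.36-fold lower (78.4 against 106), and Smad4 had a log2 ratio of -0.06 with a second probe set at -0.44. The ubiquitin ligases of this pathway went both ways, with Smurf1 at 0.37 and Smurf2 at -0.45. The other probe set of Smurf2 stood at -0.09, within the SD.

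Of 25 TGF-beta and activin target genes listed, 21 were measured, with a median of -0.13, 9 above 0 and 12 below. The list includes Ccn2 and Smad7. Tnc, the matrix protein tenascin C, was 2.71-fold higher (65.3 against 24.1), and Lox, the collagen cross-linking enzyme lysyl oxidase, was 2.13-fold higher (256 against 120) while its other probe set stood at a log2 ratio of 0.36. Without probe sets whose suffix marks several transcripts, that 0.36 is the value of Lox. Acta2, smooth muscle actin, was 2.28-fold lower (340 against 775), and Snai1, a transcription factor induced by TGF-beta, was 1.73-fold lower (38.0 against 65.8). The targets thus lay on both sides of 0.

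Markers of other cells differed alongside these targets. Smooth muscle and pericyte markers, a list that itself holds the targets Acta2 and Tagln, had a median of -0.44 or lower with 7 of 8 below 0. Their summed signal was 1052 in pricked muscle and 1697 in intact muscle. Cnn1 and Pdgfrb were below the floor in pricked muscle and Cspg4 in intact muscle. All 5 measured tendon cell markers were above 0, with a median of 2.72 and a summed signal of 1436 against 322, and Comp was below the floor in the control. All 5 measured adipocyte markers were below 0 by the brightest probe set, with a median of -1.69 or lower and 4 of them at least 2-fold lower. Their summed signal was 1304 against 3003. The other probe set of Plin1 stood at a log2 ratio of -0.61. Plin1 and Cidec were below the floor in pricked muscle and Lep on both arrays. The part of these cells in the values of Acta2, Tnc, Lox and the other targets was not tested.

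Of 12 BMP target genes listed, 11 were measured, with a median of -0.12, 4 above 0 and 7 below. Id1, an inhibitor of differentiation factors and the best known BMP target, had a signal of 132 in pricked muscle and 442 in intact muscle, 3.36-fold lower. Id3 was 2.31-fold lower (132 against 306). Each was measured only by a probe set whose suffix marks several transcripts, so neither has a value without suffixed probe sets, and the list median is then -0.05. Id4 had a log2 ratio of 0.96 by its brightest probe set, but -0.35, -0.21 and 0.23 by the other 3. Endothelial markers, cells in which Id1 and Id3 are known to be expressed, had a median of -0.65, with 10 of 11 measured below 0. Their summed signal was 924 in pricked muscle and 1585 in intact muscle, and Flt1 alone was below the floor in the stimulated sample. The part of endothelial cells in the values of Id1, Id3, Eng and Tgfbr3 was not tested.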

How the data were processed

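RNA of 1 stimulated and 1 control muscle sample was hybridised to Affymetrix arrays. The deposited values were linear signal intensities that the authors made with MAS5, per the submitters' processing notes. No label used here states its version or scaling target. Trimming 2% of probe sets from each end gave a mean of 76.5 on both arrays. Of 31099 probe sets, 57 controls were left out. Platform annotation gave 1 symbol for 20826 probe sets, several for 436 (left out) and none for 9780. Older symbols were matched through RefSeq synonyms. Signals below the floor, the median non-control signal, were raised to it. A probe set was measured where 1 array reached the floor (16644 probe sets), and the measured probe set of highest mean log2 signal stood for its gene. Calls were set at 2-fold and 1.5-fold, with no test. The number of arrays limits the precision. Named genes were the 9 analysed genes, the 4 with the largest absolute log2 ratio in each pathway list, and Tgfbr1, Acvr1b, Acvr2a, Inhba, Gdf11, Fstl3, Smad2 and Smad4, and 1 gene that is not reported here. Other genes given as examples were chosen after their values were seen. No gene of most similar pattern is named, since 2 samples define no pattern. Members and lists were chosen with earlier results of these data known. Alternatives covered scaling, floor and probe set choice. The calculation was tested on simulated data and run with Python 3.11.15, numpy 2.4.6 and pandas 2.3.3.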

Additional observations from a re-analysis of the deposited data

How the results depend on the processing

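With spike-in scaling, the median gene stood at 0.39. Log2 ratios not taken relative to it became 0.25 for Mstn, 0.35 for Fst, 0.016 for Acvr2b, 0.73 for Tgfb1, 0.30 for Tgfb2, 0.47 for Tgfb3, 0.54 for Smad3, 0.34 for Smad7 and 0.69 for Ccn2, with a median of 0.35. Of these, 2 passed 1.5-fold higher. Relative to the median gene, that median was -0.04. List medians under this scaling were 0.30 for ligands, 0.30 for receptors, 0.21 for antagonists, 0.32 for SMADs, 0.25 for TGF-beta and activin targets and 0.26 for BMP targets. All genes past 2-fold then numbered 535 higher and 44 lower. A floor at the 25th percentile gave 474 and 596, one at the 75th gave 52 and 49, and no floor gave 1129 and 1279. With the median over probe sets, Fst was at least 0.99, past 1.5-fold (1 gene), and Smad7 -0.54 or lower. Pathway genes outside the 9 past 2-fold were 8 higher and 2 lower of 71 with spike-in scaling (14.1%, against 5.8% of all genes). The 25th percentile floor gave 5 and 8 of 81 (16% against 8.38%). The 75th gave 1 and 3 of 47 (8.51% against 1.74%), and the pseudocount 1 and 3 of 69 (5.8% against 2.22%). No floor gave 9 and 10 of 87 (21.8% against 16.9%), and the main setting 3 and 6 of 69 (13% against 2.85%). The ligand median was 0.086 with no floor, the antagonist median -0.021 with the 25th percentile floor or none, and the BMP target median -0.46 with the 75th percentile floor. The floor sets which genes of a list are measured, so these list medians cover a different set of genes from the main setting. Beyond this and the shift that scaling itself sets, the cause was not tested in any case. In 0 of 8 alternatives did any of the 9 genes pass 2-fold. For Fst with the median over probe sets this is not settled, since its value of 0.99 is a lower bound set by the floor. Of 69 values of single genes among the 9, 58 moved by under 1 probe set SD. Many of these could not move, so the count does not measure robustness. A lower floor or none left all 9 genes unchanged, since their brightest probe sets lay above the floor on both arrays. Genes with 1 measured probe set cannot change with the choice of probe set. The 11 that moved include all values under spike-in scaling. The 75th percentile floor left 7 of the 9 genes, and leaving out suffixed probe sets removed Tgfb2. No paired analysis was possible because each group had 1 sample.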
